A study of Bos taurus with 2 samples.

Results

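FOSB, JUNB, ATF3, DUSP1, IER3 and KLF2 are 6 of the 17846 genes in the count table, listed by name rather than by a threshold on a value, and chosen with earlier results of these data known. FOSB and JUNB encode subunits of the dimeric transcription factor AP-1, and ATF3 encodes a stress-induced partner of the same bZIP class. DUSP1 encodes a nuclear phosphatase that switches off MAP kinases, IER3 an immediate early protein linked to survival signalling, and KLF2 a zinc-finger transcription factor best known as a flow-responsive gene of endothelium. The question asked of them was how their levels differ between cell gates, with the ribosomal protein share and between replicates.

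Single-cell RNA was counted in bovine embryos at day 25 into which bovine embryonic stem cells had been incorporated, so host and donor-derived cells are both present. Both samples are replicates of 1 group with no other treatment, and the labels do not say whether they came from separate embryos, nor how many embryos were pooled. The tissue was minced, incubated at 37 °C for 40 min with papain (2 mg/ml) and DNase I (1 mg/ml), passed through a 70 μm strainer and sorted before droplet loading, with a sort gate not given in the sources used here. There is no undigested or unsorted control, so RNA made during dissociation cannot be told apart from RNA present in the embryo.

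Immediate early genes are transcribed within minutes of a growth factor, stress or mechanical signal, without new protein synthesis, because their promoters are held ready for kinase-activated factors such as SRF, CREB and pre-existing AP-1. Their messages are short-lived, and DUSP1 belongs to the feedback arm that ends the signal. The same genes are commonly induced by warm enzymatic dissociation, and in intact embryos they also mark cells receiving growth factor or mechanical input.

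The replicates held 1973 and 2464 cells, with 11182089 and 15427708 UMIs (unique molecular identifiers, each counting 1 captured RNA molecule). After filtering, 4359 cells were kept, and 6 barcodes occurred in both replicates. The SOX2 gate (1 or more UMIs of this neural and pluripotency factor, under 2 neuron markers and under 2 collagen VI UMIs) held 595 and 789 cells in replicates 1 and 2. The neuron gate (UMIs of 2 or more of DCX, STMN2, ELAVL3, ELAVL4 and TUBB3, under 2 collagen VI UMIs, with or without SOX2) held 759 and 930 cells, 973 of them also with a SOX2 UMI. The collagen VI gate (2 or more UMIs of COL6A1, COL6A2 and COL6A3, no SOX2 and under 2 neuron markers) held 40 and 74 cells. The other cells were 532 and 604 with no gate, and 13 and 23 that had 2 or more collagen VI UMIs together with SOX2 or 2 or more neuron markers and were set aside. Levels are given in CPM, the UMIs of a gene summed over the cells of a class and scaled to a fixed total of UMIs.

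Among genes that took no part in gating, neuron markers bore out the name of the neuron gate. A list of neuron markers outside the gate summed to 510 and 493 CPM in the neuron gate of the 2 replicates, against 78.2 and 53.7 CPM in the SOX2 gate. Neural progenitor markers summed to 1244 and 1171 CPM in the SOX2 gate. Their sum in the neuron gate is not given, so they do not set these gates apart. In the collagen VI gate, mesenchyme markers summed to 32251 and 33646 CPM. Plasma protein genes of endoderm (24993 and 24850 CPM) and epithelial genes, mainly keratins (8331 and 8640 CPM), were found there as well. The sums of these lists in the other gates are not given. The collagen VI cells are therefore called by their gate and given no cell type name. Of the endothelial markers, CDH5, PECAM1, TIE1, ESAM and ERG had no UMI in the collagen VI gate in either replicate, although the list summed to 129 CPM in each. That list also holds KDR, TEK, EGFL7, CLDN5, SOX17 and EMCN. Of the macrophage markers, CSF1R, C1QB, C1QC and TYROBP had none there, and the levels of the others (CD68, AIF1, C1QA and LAPTM5) are not given. Neither set of zeros speaks for its whole list.

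Among the 3 gates and ungated cells, all 6 genes stood highest in the collagen VI gate, in both replicates. Outside these classes, IER3 in replicate 1 of the cells with trophoblast markers (79.1 CPM, 14 UMIs) and ATF3 in replicate 2 of the cells set aside (441 CPM) were above it. FOSB was at 864 and 874 CPM there (321 and 713 UMIs), at 41.7 and 28.7 CPM in the SOX2 gate, at 20.6 and 21.2 CPM in the neuron gate and at 20.0 and 25.8 CPM in ungated cells. Its neuron-gate and ungated values overlapped, and the collagen VI values lay far above the rest. JUNB was at 250.3 and 346 CPM in the collagen VI gate, 33.8 and 28.7 CPM in the SOX2 gate, 20.2 and 22.0 CPM in the neuron gate and 41.9 and 34.8 CPM in ungated cells. The neuron gate was lowest for JUNB, and the intervals of the SOX2 gate and of ungated cells overlapped.

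ATF3 was the most evenly spread of the 6. It stood at 379 and 353 CPM in the collagen VI gate, 250.5 and 185 CPM in the SOX2 gate, 217 and 202 CPM in ungated cells and 128 and 118 CPM in the neuron gate. The SOX2 and ungated values overlapped, and the neuron gate was lowest in both replicates. DUSP1 was at 535 and 740 CPM in the collagen VI gate, 89.4 and 86.0 CPM in the SOX2 gate, 80.7 and 98.3 CPM in the neuron gate and 62.9 and 60.2 CPM in ungated cells, so the SOX2 and neuron gates overlapped for it.

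IER3 was at 67.3 and 130 CPM in the collagen VI gate, 11.8 and 9.90 CPM in the SOX2 gate, 5.43 and 5.83 CPM in the neuron gate and 12.6 and 16.0 CPM in ungated cells. KLF2 was at 143 and 251 CPM in the collagen VI gate (53 and 205 UMIs), and at 5.63 and 4.65 CPM in the SOX2 gate (19 and 23 UMIs). It stood at 1.94 and 2.84 CPM in the neuron gate and 4.19 and 1.64 CPM in ungated cells, which overlap and rest on 4 to 20 UMIs each. Between replicates, IER3, KLF2, JUNB and DUSP1 were higher in replicate 2 within the collagen VI gate, with 95% counting intervals that did not overlap for IER3, KLF2 and DUSP1. The replicates carry the same label, so this difference has no replicate check.

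**Figure D1:**
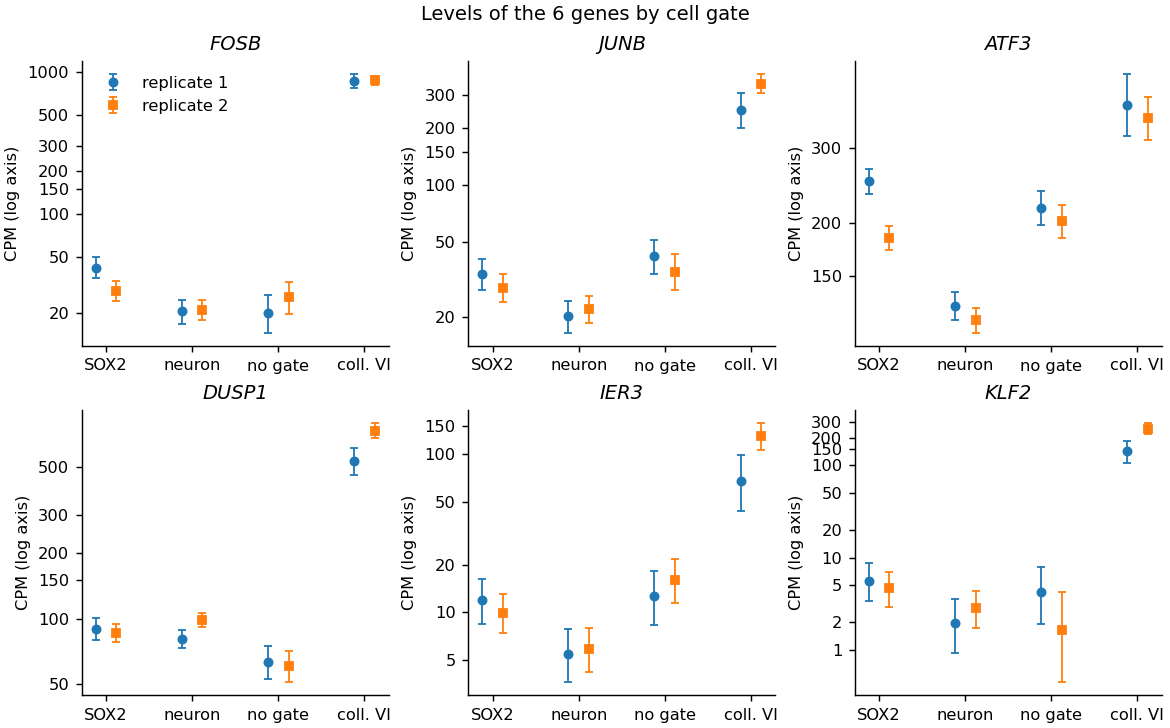
Level of each gene in CPM (log axis, a separate scale for each gene) in the SOX2, neuron, ungated and collagen VI classes, with replicate 1 as circles and replicate 2 as squares; bars are exact Poisson 95% intervals and cover counting error only. In each panel both collagen VI points lie above the points of the 3 other classes, by the least for ATF3 (379 and 353 CPM against 250.5 and 185 CPM in the SOX2 gate).

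The collagen VI gate held 3.33% and 5.30% of the UMIs of kept cells in replicates 1 and 2, yet 52.0% and 63.7% of the FOSB UMIs and 58.2% and 74.8% of the KLF2 UMIs. For JUNB the share was 23.0% and 41.7%, for DUSP1 18.6% and 31.2%, for IER3 20.2% and 43.3%, and for ATF3 6.64% and 11.1%. FOSB and KLF2 RNA thus came mostly from 114 of the 4359 kept cells, whereas most ATF3 RNA came from elsewhere.

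Against the SOX2 gate, all 6 genes were called higher in the collagen VI gate by edgeR (adjusted p under 0.05). KLF2 differed by 6.13 on the log2 scale (SE 0.23, adjusted p = 1.6e-39), FOSB by 5.46 (SE 0.12, adjusted p = 1.8e-49) and JUNB by 4.11 (SE 0.16, adjusted p = 9.6e-37). IER3 differed by 4.09 (SE 0.25, adjusted p = 4.0e-24), DUSP1 by 3.68 (SE 0.12, adjusted p = 2.4e-39) and ATF3 by 1.57 (SE 0.12, adjusted p = 1.7e-20). Of the 13209 genes tested, 24.5% were called higher, so 6 of 6 is above the background. The 6 were chosen with earlier results of these data known, so this is no test. A log2 difference of 3 was exceeded by 4.85% of genes and by 5 of the 6. Among all genes KLF2 ranked 139 from the top, FOSB 206 and ATF3 1725. With sums scaled to total UMIs in place of TMM (edgeR's trimmed mean of M values), the median of all genes moved from -0.20 to -0.99 and the calls from 3235 higher and 3424 lower to 1815 higher and 6895 lower. The 6 genes were still called higher under that scaling, by 5.34 (KLF2), 4.67 (FOSB), 3.32 (JUNB), 3.30 (IER3), 2.89 (DUSP1) and 0.78 (ATF3).

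Against the neuron gate the differences were larger for KLF2 (7.05, SE 0.24), FOSB (6.06, SE 0.12), IER3 (4.90, SE 0.26), JUNB (4.54, SE 0.16) and ATF3 (2.26, SE 0.12), and 3.53 (SE 0.11) for DUSP1. All 6 were called higher, where 23.3% of genes were (3081 higher and 3421 lower, or 1860 and 6807 with total UMI scaling). Both comparisons share the collagen VI sums and are not independent of each other.

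Collagen VI cells were also deeper and richer in ribosomal protein RNA. Their median was 11586.5 UMIs per cell, against 5506.5 in the SOX2 gate and 7057 in the neuron gate, with a median ribosomal protein share of 23.7% against 4.61% and 8.31%. The median mitochondrial share was 1.04% against 0.317% and 0.301%. At a matched ribosomal protein share of over 15% the difference from the SOX2 gate was still above 3 on the log2 scale for the same 5 genes, and 2.46 in place of 1.57 for ATF3. In that band FOSB was at 891 and 834 CPM in 24 and 57 collagen VI cells and at 36.8 and 18.2 CPM in 139 and 272 SOX2 cells, a log2 difference of 5.65 (SE 0.18, adjusted p = 1.5e-24). KLF2 was at 131 and 238 CPM against 9.0 and 4.36 CPM, a difference of 5.57 (SE 0.33, adjusted p = 2.7e-17). ATF3 was at 345 and 297 CPM against 115 and 64.1 CPM, a difference of 2.46 (SE 0.27, adjusted p = 1.7e-05). None of these values overlapped between the gates.

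JUNB (4.26, SE 0.21), IER3 (3.74, SE 0.34) and DUSP1 (3.35, SE 0.14) were called higher too, so 6 of 6 were called in a band where 19.9% of genes were (2471 higher and 2638 lower, or 1589 and 5243 with total UMI scaling). In the lower bands the collagen VI gate held 7 to 10 cells per replicate and was not tested. There FOSB was at 411 and 895 CPM under 5% and at 1051 and 1371 CPM from 5 to 15%, and KLF2 had no UMI in replicate 1 under 5% but stood at 319.7 CPM in replicate 2.

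**Figure D2:**
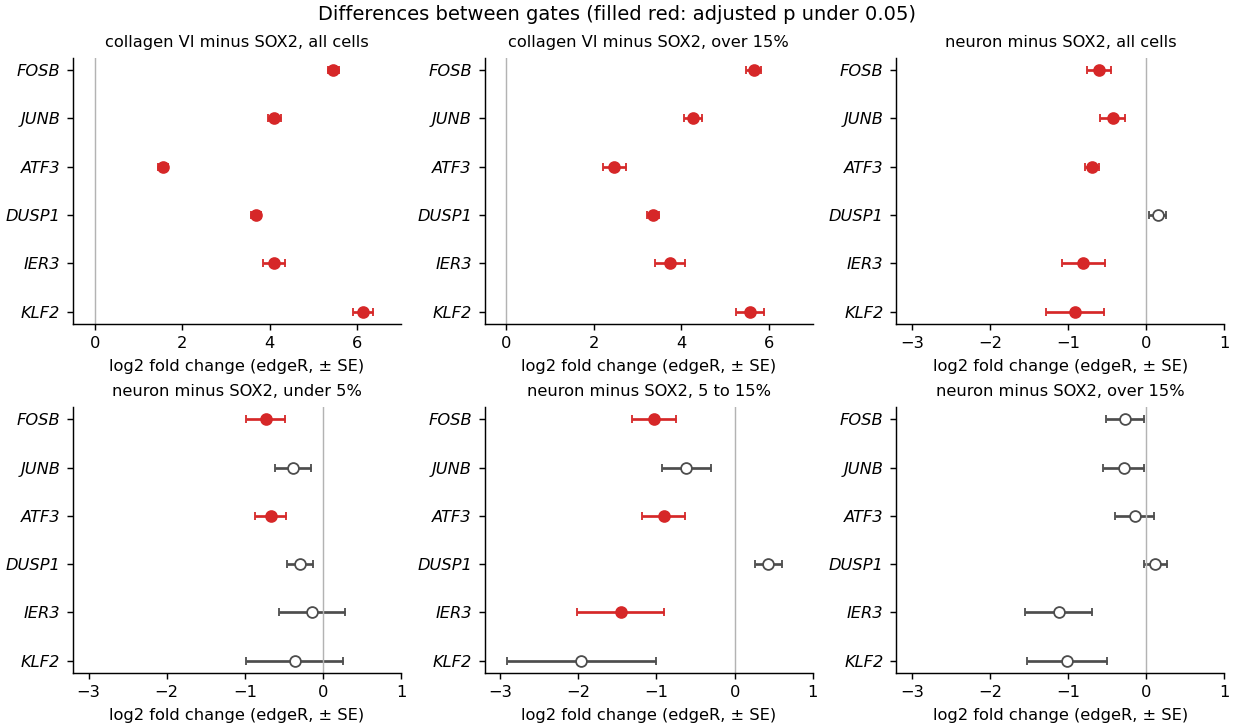
Log2 differences of the 6 genes between gates, each point with 1 SE from the edgeR fit. The collagen VI contrasts are all above 0, also under total UMI scaling, and the neuron minus SOX2 contrasts lie between -0.91 (KLF2) and 0.15 (DUSP1) over all cells; the DUSP1 value is not called, and the sign of its estimate moved between -0.011 and 0.23 over the alternatives.

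Within the collagen VI gate the signal was split. Divided by keratin RNA (KRT8, KRT18 and KRT19, 5 or more UMIs summed, a division chosen after the values were seen and given without a test), 95 of the 114 cells were keratin-positive, with FOSB at 942 and 915 CPM and KLF2 at 156 and 265 CPM. In the 9 and 10 other cells FOSB had 2 and 6 UMIs, and JUNB and KLF2 had none, which allows up to 91.4 and 70.2 CPM in replicates 1 and 2 at 3 counts. ATF3 differed less, at 404 and 353 CPM in keratin-positive cells and 122 and 351 CPM in the others (4 and 15 UMIs). DUSP1 averaged 680 CPM in keratin-positive cells and 81.9 CPM in the others, and IER3 105 and 11.7 CPM. The keratin-positive cells were also deeper, with a median of 12571 UMIs against 3665. Their median ribosomal protein share was 26.7% against 2.73%. The part of depth or of ribosomal protein share in the split was not tested.

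A few cells carried much of the signal. The 5 highest cells held 83.0% and 41.5% of the KLF2 UMIs of the collagen VI gate in replicates 1 and 2, with up to 12 and 26 UMIs in 1 cell. For FOSB the 5 highest cells held 31.8% and 21.5%, so FOSB was the most widely spread of the 6 there. Leaving out the cells above the 95th percentile of UMIs kept all 6 genes called higher, 6 of 6, with a median log2 difference of 3.93 against 4.1. That step drops cells by their total UMIs and not by UMIs of these genes, so the calls without the highest cells of each gene were not tested.

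The neuron gate was lower than the SOX2 gate for 5 of the 6 genes. ATF3 differed by -0.69 (SE 0.09, adjusted p = 3.4e-09), FOSB by -0.60 (SE 0.15, adjusted p = 0.0011), IER3 by -0.81 (SE 0.27, adjusted p = 0.017), JUNB by -0.43 (SE 0.16, adjusted p = 0.031) and KLF2 by -0.91 (SE 0.37, adjusted p = 0.049). The replicate values of these 5 genes, given above, did not overlap between the gates. DUSP1 was not called (0.15, SE 0.11, adjusted p = 0.31). Of all genes 15.9% were called lower (2353 higher and 2095 lower, or 1705 and 3147 with total UMI scaling). The 5 of 6 is above that share, which is no test for genes chosen with earlier results known. Only ATF3 was called under all 12 alternative settings, from -1.08 to -0.64, and DESeq2 called ATF3 alone. FOSB missed with DESeq2 (adjusted p = 0.059) and after thinning (adjusted p = 0.25). JUNB was called in 8 of 12, IER3 in 9 and KLF2 in 5. Thinning ended each of these calls (edgeR adjusted p = 0.17, 0.14 and 0.27).

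By ribosomal protein band, 2 and 3 of the 6 genes were called lower in the neuron than in the SOX2 gate in the 2 bands below 15% and none above, and whether the gap differed between the bands over and below 15% was not tested. Under 5%, ATF3 was at 193 and 255 CPM in the neuron gate and 378 and 346 CPM in the SOX2 gate, a difference of -0.67 (SE 0.20, adjusted p = 0.039). FOSB was at 16.1 and 25.4 CPM against 38.2 and 31.4 CPM, a difference of -0.73 (SE 0.25, adjusted p = 0.036). These 2 of the 6 were called lower where 9.70% of genes were (1161 higher and 1205 lower), and each was called in 9 of 13 alternatives. Scaling to DESeq2 size factors gave 1290 higher and 849 lower genes and ended both calls (adjusted p = 0.054 each).

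From 5 to 15%, FOSB was at 25.1 and 25.6 CPM in the neuron gate and 63.8 and 57.3 CPM in the SOX2 gate (-1.03, SE 0.28, adjusted p = 0.0039). ATF3 was at 110.5 and 81.7 CPM against 173 and 234 CPM (-0.91, SE 0.27, adjusted p = 0.025), and IER3 at 3.92 and 5.54 CPM against 20.6 and 11.7 CPM (-1.46, SE 0.56, adjusted p = 0.041). These 3 were called lower where 13.4% of genes were (2339 higher and 1670 lower, or 1754 and 2810 with total UMI scaling), and no replicate values overlapped. Thinning ended the FOSB and IER3 calls (adjusted p = 0.18 and 0.29), and IER3 was called in 10 of 13 alternatives.

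Over 15%, edgeR called 0 of the 6, where it called 5.31% of genes in either direction (507 higher and 152 lower, or 384 and 241 with total UMI scaling). At an unadjusted p under 0.05 the count was 1 (IER3, -1.12, SE 0.43), and DESeq2 called 0. The IER3 estimate and that of KLF2 (-1.02, SE 0.52) were no smaller in size than over all cells, while under 5% they were -0.14 (SE 0.42) and -0.36 (SE 0.62). ATF3 stood at 71.2 and 70.9 CPM in the neuron gate and 115 and 64.1 CPM in the SOX2 gate, overlapping. IER3 was called in 2 of 13 alternatives, among them the one without globin-rich cells (adjusted p = 0.0499). In this band the neuron marker list summed to 209 and 209 CPM in the neuron gate, against 510 and 493 CPM over all bands. Its sum in the SOX2 gate over 15% is not given, so how sharply the gates part neurons in this band was not tested.

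**Figure D3:**
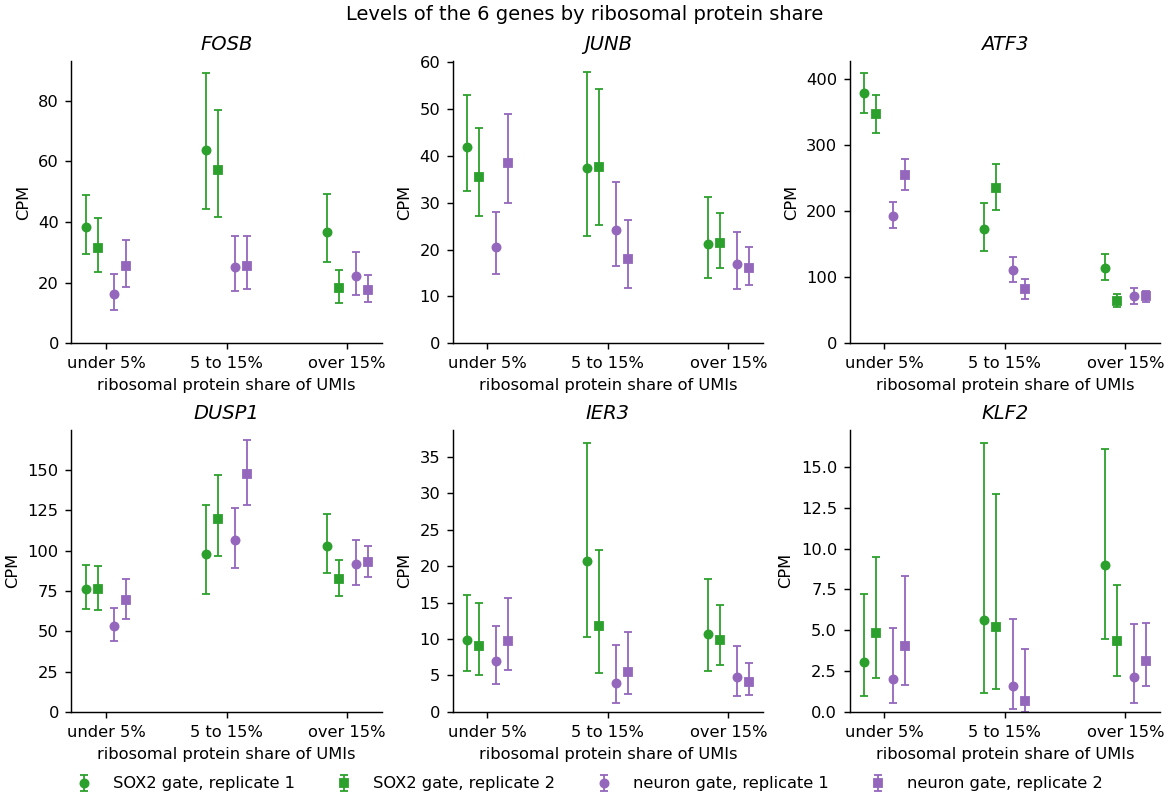
Level of each gene in CPM by ribosomal protein share (under 5%, 5 to 15% and over 15% of UMIs), for the SOX2 gate (green) and the neuron gate (purple), with circles for replicate 1, squares for replicate 2 and exact Poisson 95% intervals that cover counting error only. ATF3 falls from 378 and 346 CPM to 115 and 64.1 CPM across the SOX2 bands and from 193 and 255 CPM to 71.2 and 70.9 CPM across the neuron bands, whereas DUSP1 is lowest under 5%; the call of DUSP1 over 15% against under 5% in the SOX2 gate is lost under total UMI scaling.

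Along the ribosomal protein share, ATF3 fell within both gates, and DUSP1 was higher in both upper bands than under 5%. EdgeR did not call DUSP1 between the upper bands of the SOX2 gate (0.24, SE 0.18, adjusted p = 0.32). ATF3 differed between over 15% and under 5% by -1.48 in the SOX2 gate (SE 0.23, adjusted p = 0.00014) and by -0.96 in the neuron gate (SE 0.22, adjusted p = 0.0025). It was called lower under all 13 alternatives in each gate, and the bands did not overlap. Already from under 5% to 5 to 15% it fell in the neuron gate (-0.94, SE 0.24, adjusted p = 0.0072), where 20.8% of genes were called lower, and was not called in the SOX2 gate (-0.69, SE 0.23, adjusted p = 0.059), although 7 of 13 alternatives called it. Lower calls took 33.7% and 34.9% of genes between the outer bands, so a lower call is common there. ATF3 was the only gene of the 6 called lower between the outer bands. Ungated cells, which were not tested, stood at 313 and 292 CPM under 5% and 59.7 and 85.4 CPM over 15%.

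DUSP1 was at 53.4 and 69.1 CPM under 5%, 107 and 147.5 CPM from 5 to 15% and 91.8 and 92.9 CPM over 15% in the neuron gate. Both upper bands were above the lowest, by 1.35 (SE 0.16, adjusted p = 6.3e-09) and 1.27 (SE 0.15, adjusted p = 3.6e-09). Higher calls took 26.2% and 33.6% of genes, and DUSP1 was called higher under all 13 alternatives in each, with 0.59 for the over 15% band under total UMI scaling. In the SOX2 gate DUSP1 was at 76.4 and 76.1 CPM under 5%, 97.6 and 119.8 CPM from 5 to 15% and 103 and 82.3 CPM over 15%. The differences from the lowest band were 0.62 (SE 0.19, adjusted p = 0.015) and 0.86 (SE 0.16, adjusted p = 1.7e-05), where 11.2% and 29.3% of genes were called higher. The second was lost under total UMI scaling (0.23, adjusted p = 0.19), and the first after thinning (adjusted p = 0.18).

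FOSB followed neither course. In the SOX2 gate it peaked in the middle band, at 63.8 and 57.3 CPM, against 38.2 and 31.4 CPM below and 36.8 and 18.2 CPM above, and the middle band overlapped neither. The middle band was higher than the lowest by 0.90 (SE 0.26, adjusted p = 0.010), and the highest was lower than the middle by 0.75 on the log2 scale (-0.75, SE 0.27, adjusted p = 0.024), where 19.1% of genes were called lower. Both calls were lost after thinning (adjusted p = 0.13 and 0.36) and with bands set at 8% and 20% (adjusted p = 0.052 and 0.18). ATF3 was also called lower over 15% than from 5 to 15% (-0.79, SE 0.27, adjusted p = 0.037). In the neuron gate FOSB was called higher over 15% than under 5% (0.61, SE 0.25, adjusted p = 0.032), but the CPM were 22.1 and 17.7 against 16.1 and 25.4 and overlapped. Total UMI scaling turned its sign (-0.065, adjusted p = 0.82). With TMM kept, 1 replicate at a time gave 0.19 without replicate 1 and 1.05 without replicate 2.

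With TMM scaling of all kept cells, JUNB, IER3 and KLF2 were not called between bands in either gate, but some alternatives called them. JUNB stood at 41.9 and 35.6 CPM under 5% and 21.3 and 21.4 CPM over 15% in the SOX2 gate, with a TMM-scaled difference of -0.25 (SE 0.25, adjusted p = 0.38), and it was called lower under total UMI scaling (-0.87, adjusted p = 0.0016). The same scaling called it lower over 15% than from 5 to 15% in the SOX2 gate (-0.82, adjusted p = 0.021) and than under 5% in the neuron gate (-0.84, adjusted p = 0.0021). It also called IER3 lower over 15% than under 5% in the neuron gate (-0.96, adjusted p = 0.044), and stricter gates called KLF2 higher in that contrast of the SOX2 gate (1.60, adjusted p = 0.024). KLF2 ranged from 0.692 to 9.0 CPM over the bands of both gates and IER3 from 3.92 to 20.6 CPM.

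In these band contrasts total UMI scaling moved the calls over all genes towards lower. For over 15% against under 5%, 3643 higher and 4189 lower became 2367 and 6653 in the SOX2 gate, and 4176 and 4336 became 2717 and 6696 in the neuron gate. For 5 to 15% against under 5%, 1389 and 1033 became 1211 and 1714 in the SOX2 gate, and 3253 and 2579 became 2510 and 4501 in the neuron gate. For over 15% against 5 to 15% in the SOX2 gate, 2450 and 2369 became 1360 and 4964. The median of all genes moved from -0.14 to -0.77 in the SOX2 gate and from -0.07 to -0.76 in the neuron gate between the outer bands, and depth moved along with the bands, from a median of 4334 to 9535 UMIs per cell in the SOX2 gate and from 4816 to 10321 in the neuron gate. The part of depth in the ATF3 and DUSP1 courses was tested only by thinning each cell to 2000 UMIs, under which the outer-band calls of both were kept in both gates.

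Whether the step from under 5% to 5 to 15% differed between the neuron and SOX2 gates was tested directly. EdgeR called 0 of the 6, where it called 8.31% of genes (807 higher and 225 lower, or 570 and 724 with total UMI scaling). The count at an unadjusted p under 0.05 was 1 (DUSP1, 0.73, SE 0.25, adjusted p = 0.058), and DESeq2 called 0.

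In single cells of the collagen VI gate, UMIs of 2 or more of the 6 genes were often found. Such shares rise with the share of each gene alone. What independent detection would give was not worked out, so they are not read as joint expression. Each cell was thinned to 2000 UMIs so that depth would not set the count, which left out 605 shallower cells. Of collagen VI cells, 62.2% in replicate 1 (23 of 37, exact binomial 95% interval 44.8 to 77.5%) and 73.2% in replicate 2 (52 of 71, 61.4 to 83.1%) held UMIs of 2 or more of the genes. The share was 16.2% (13.2 to 19.6%) and 10.8% (8.65 to 13.3%) in the SOX2 gate, and 6.76% (5.04 to 8.84%) and 8.43% (6.69 to 10.4%) in the neuron gate. Ungated cells had 13.3% and 11.4%.

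UMIs of 4 or more of the genes were found in 23 of 108 collagen VI cells, 3 of 1252 SOX2 cells, 3 of 1615 neuron-gate cells and 4 of 743 ungated cells. Unthinned, the share with 2 or more averaged 77.5%, 34.2% and 28.2% over the replicates of the collagen VI, SOX2 and neuron gates. Over 15% ribosomal protein share, the thinned share was still 70.8% and 73.2% in the collagen VI gate. In the SOX2 gate it stood at 19.6% and 15.6% under 5%, at 17.4% and 14.3% from 5 to 15%, and at 7.52% and 3.35% over 15%, lowest over 15% in both replicates. In the neuron gate the bands overlapped (6.94% and 11.9%, 8.89% and 5.15%, 4.52% and 7.14%).

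**Figure D4:**
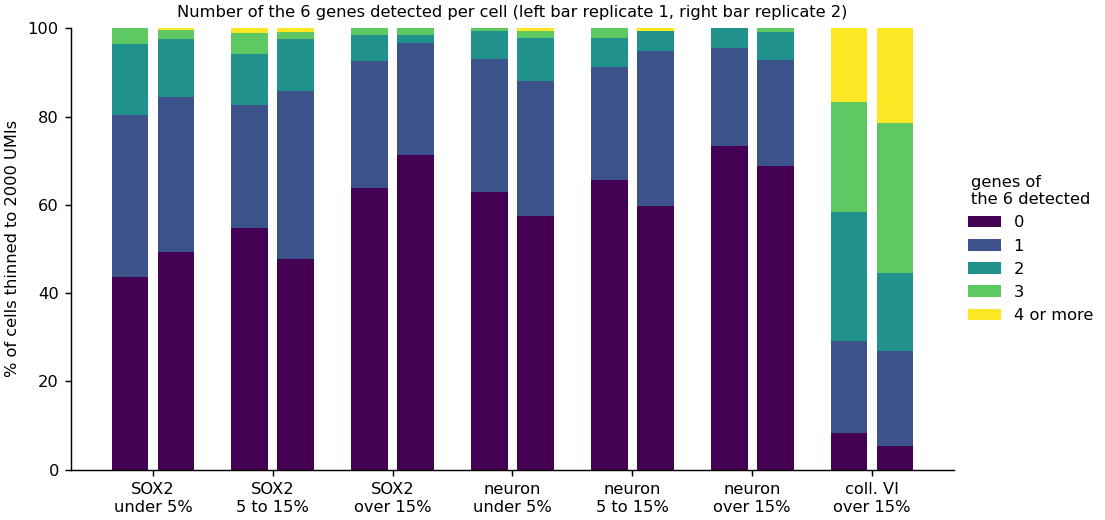
Share of cells, in percent, by the number of the 6 genes with a UMI after thinning each cell to 2000 UMIs. Stacked bars are given by gate, band of ribosomal protein share and replicate, with only the highest band for the collagen VI gate. In that band the mean was 2.21 and 2.52 genes per cell in the collagen VI gate. It was 0.451 and 0.335 in the SOX2 gate and 0.312 and 0.392 in the neuron gate. Over whole gates, which are not drawn, the collagen VI mean was 2.05 and 2.56. The whole-gate means were 0.693 and 0.559 in the SOX2 gate and 0.411 and 0.473 in the neuron gate.

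By gene, FOSB was found in 70.3% and 67.6% of thinned collagen VI cells, DUSP1 in 43.2% and 60.6%, ATF3 in 43.2% and 46.5% and JUNB in 24.3% and 39.4%. IER3 was in 13.5% and 16.9% and KLF2 in 10.8% and 25.4%. In the SOX2 gate the shares were 8.29% and 4.99% for FOSB, 33.7% and 27.9% for ATF3, and 1.13% and 0.693% for KLF2. The corresponding unthinned shares were 77.5% and 82.4% for FOSB in the collagen VI gate and 14.5% and 12.9% in the SOX2 gate.

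Free RNA was gauged in 28 cells with 20% or more globin UMIs, a median of 27013.5 UMIs deep. Of these 28, 1 was in the SOX2 gate, 5 in the neuron gate and 22 in no gate. FOSB and ATF3 had 2 UMIs each in the globin-rich cells and KLF2 none. After thinning none of these 3 genes nor IER3 was found in any of the 28, which allows a share of up to 10.7%. Before thinning, IER3 averaged 17.2 CPM in these cells, above its 10.9 and 5.63 CPM in the SOX2 and neuron gates. The FOSB shares of the collagen VI gate and the ATF3 shares of all gates exceed that limit. The FOSB shares of the SOX2 and neuron gates and all KLF2 and IER3 shares outside the collagen VI gate lie under it. They are not read as expression from the share alone. The SOX2, neuron and collagen VI gates were shallower (medians of 5506.5, 7057 and 11586.5 UMIs). The same number of free UMIs per cell would be a larger share of such cells, so the limit may be too low for them. JUNB was found in 21.4% of thinned globin-rich cells and DUSP1 in 7.14%, at 39.7 and 46.6 CPM and 79.5 and 59.6 CPM. The JUNB shares in the SOX2 and neuron gates are at or below the JUNB share there. Over all kept cells ATF3 and FOSB averaged 179.5 and 64.0 CPM, above JUNB at 40.0 CPM. In globin-rich cells ATF3 and FOSB averaged 3.14 and 1.86 CPM. Whether JUNB and DUSP1 in globin-rich cells were free RNA or RNA of those cells was not tested.

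Cells with a FOSB UMI had UMIs of JUNB, DUSP1 and ATF3 in a larger share than cells without one. In the SOX2 gate, 17.5% of the 80 FOSB-positive cells had JUNB (exact interval 9.91 to 27.6%) against 6.31% of FOSB-negative cells, 31.2% had DUSP1 against 13.7%, and 45.0% had ATF3 against 29.4%. In the neuron gate, 14.5% of 69 FOSB-positive cells had JUNB against 4.53%, 26.1% had DUSP1 against 13.5%, and 36.2% had ATF3 against 19.3%. In these 2 gates the FOSB shares lay under the upper limit from the globin-rich cells, and the JUNB shares at or below the share found there. The shares of this paragraph therefore count UMIs found together and are not read as expression in the same cells. As a level, FOSB averaged 1.86 CPM in globin-rich cells against 35.2 and 20.9 CPM in the SOX2 and neuron gates. JUNB averaged 43.2 CPM in globin-rich cells against 31.2 and 21.1 CPM. These levels set no background, because the globin-rich cells were deeper (median of 27013.5 UMIs against 5506.5 and 7057). For IER3 and KLF2 the shares rest on at most 2 FOSB-positive cells per gate and show no direction: IER3 was in 1.25% of FOSB-positive SOX2 cells (exact interval 0.0316 to 6.77%) against 2.13% of the others, and KLF2 in 2.50% (0.304 to 8.74%) against 0.768%.

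Inside the collagen VI gate, JUNB was found in 41.9% of 74 FOSB-positive cells against 17.6% of the others, and DUSP1 in 58.1% against 47.1%. Of 22 KLF2-positive cells, 81.8% had FOSB against 65.1% of KLF2-negative cells, 68.2% had ATF3 against 39.5% and 68.2% had DUSP1 against 51.2%. ATF3 was in 40.5% of 37 JUNB-positive cells there against 47.9% of the others, and in the SOX2 gate in 48.9% of 88 against 29.0%. Cells are not replicates, so these shares carry no test, and the difference between gates was not tested.

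Across 20 sums of gate, band and replicate with 20 or more cells each, the profiles of the 6 genes fell into different company. The correlations are descriptions over sums that share libraries and suspensions, and the 2 collagen VI sums carry much of some. FOSB was most like AEBP1, WFDC1 and COL18A1, which encode secreted or matrix proteins (Pearson r of log2 CPM with 10 added, 0.96 each), and without the collagen VI sums these fell to 0.27, 0.079 and 0.57. KLF2 was most like WFDC1 (0.98), ANGPTL2 (0.98) and SOD3 (0.97), which stood at 0.29, 0.64 and -0.33 without them. JUNB was most like the basement membrane genes COL18A1 (0.96), NID2 (0.96) and HSPG2 (0.95), which stayed at 0.80, 0.76 and 0.72.

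The genes most like DUSP1 included the AP-1 subunit genes JUND (0.95) and JUN (0.95), at 0.83 and 0.77 without the collagen VI sums. ATF3 was most like HEG1, KLF4 and IQGAP1 (0.95, 0.95 and 0.94), and these values hardly moved without them (0.95, 0.94 and 0.94). IER3 was most like ANXA1 (0.90), PON2 (0.90) and CTSA (0.89). Among the 6, FOSB and KLF2 were closest (0.95, and 0.33 without the collagen VI sums), and ATF3 and DUSP1 were at 0.17, and at -0.38 without them.

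Genes of the same families and pathways, in lists chosen with earlier results of these data known, did not all move with the 6. Between the collagen VI and SOX2 gates, where the median of all genes was -0.20 and 24.5% of genes were called higher and 25.9% lower, 10 of 21 other AP-1 and ATF genes were called higher and 6 lower (median 0.57). FOSL2, an AP-1 subunit, was at 94.2 and 62.5 CPM against 4.15 and 4.65 CPM (4.84, SE 0.33), and JUN at 4198 and 4463 CPM against 916 and 907 CPM (3.03, SE 0.11). Of 34 other immediate early genes 21 were called higher and 2 lower (median 1.44), led by CSRNP1 (67.3 and 67.4 against 6.81 and 9.90 CPM, 3.75, SE 0.30) and BTG2 (88.8 and 212 against 29.0 and 31.3 CPM, 3.22, SE 0.20). With total UMI scaling, where the median of all genes was -0.99, these counts were 6 higher and 9 lower (median -0.22) and 16 higher and 10 lower (median 0.66). The sign of the AP-1 and ATF median turned as that of all genes moved, and it lay 0.77 above the median of all genes under both scalings, while the calls of FOSL2, JUN, CSRNP1 and BTG2 were kept.

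Of 17 MAP kinase phosphatase and ERK feedback genes 4 were called higher and 6 lower (median -0.31, and -1.10 with 1 higher and 10 lower under total UMI scaling), near the shares over all genes. DUSP4 had no UMI in the collagen VI gate and stood at 19.2 and 16.4 CPM in the SOX2 gate, and SPRED3 was at 0 and 1.23 CPM against 16.9 and 12.3 CPM (1 UMI in the collagen VI gate, so no fold is given). Of 18 KLF and SP genes 8 were higher and 4 lower (median 0.05, and -0.74 with 7 higher and 6 lower under total UMI scaling). KLF6 rose (460 and 614 against 156 and 137 CPM, 2.70, SE 0.12) and KLF7 fell (0 and 3.68 against 45.0 and 40.0 CPM, with 3 UMIs in the collagen VI gate and no fold given).

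Of 11 NF-kappa-B response genes 6 were called higher and 0 lower (median 1.19, and 0.40 with 5 higher and 2 lower under total UMI scaling). ICAM1 was at 37.7 and 38.0 CPM against 5.63 and 5.45 CPM (3.54, SE 0.40), and TNFAIP3 at 2.69 and 23.3 CPM against 5.63 and 3.03 CPM (2.83, SE 0.59), where the replicates overlapped. Of 5 tested genes from a list of KLF2 targets in endothelium, 4 were called higher and 0 lower (median 2.70, and 1.91 with 4 higher and 1 lower). They included the matrix protease gene ADAMTS9 (595 and 422 against 22.5 and 19.6 CPM, 5.34, SE 0.14) and PLVAP (16.1 and 20.8 CPM against 0.296 and 0.202 CPM). Some endothelial markers had no UMI in this gate, as given above, while others of their list had UMIs.

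Heat shock genes were called higher in 9 and lower in 5 of 21 (median 0.27, and -0.52 with 4 higher and 11 lower under total UMI scaling), with HSPB1 at 1553 and 2049.7 CPM against 555 and 624 CPM (2.39, SE 0.11) and HSPB8 with no UMI against 4.44 and 5.25 CPM. Integrated and endoplasmic reticulum stress genes were higher in 7 and lower in 6 of 19 (median -0.33, and -1.12 with 2 higher and 10 lower), again not far from the shares over all genes. HMOX1 was at 13.5 and 15.9 against 3.85 and 5.66 CPM (2.31, SE 0.54), and SESN2 at 43.1 and 8.58 against 143 and 104 CPM (-1.79, SE 0.29).

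Between the neuron and SOX2 gates, where 17.8% of all genes were called higher and 15.9% lower, 20 of 34 other immediate early genes were called lower and 1 higher (median -0.40, against a median of -0.0030 over all genes), as were 7 of 21 AP-1 and ATF genes with 1 higher (median -0.21). FOS, the partner of JUN in AP-1, was at 177 and 197 CPM against 290.5 and 300.2 CPM (-0.55, SE 0.10), and CCN1 at 133 and 128 against 306 and 241 CPM (-0.94, SE 0.10). MAFF (-0.65, SE 0.13) and ZFP36 (-0.96, SE 0.36) were the other genes named by the same rule, and FOS and MAFF were called in 11 of 12 alternatives and ZFP36 in 8. With total UMI scaling the counts were 24 lower and 0 higher, and 9 lower and 0 higher. Of 11 NF-kappa-B response genes 4 were lower and 0 higher, led by NFKBIZ (-1.11, SE 0.22) and NFKB2 (-0.89, SE 0.28). Of 19 stress genes 7 were lower and 0 higher, led by SESN2 (-0.90, SE 0.11) and SLC7A11 (-0.75, SE 0.12). KLF4 was lower (-1.14, SE 0.14) and KLF7 higher (1.25, SE 0.12), with 4 KLF and SP genes called in each direction of 18. Phosphatase and ERK feedback genes were split 3 and 3 of 17, close to the shares over all genes, with DUSP8 (1.64, SE 0.20) and the feedback inhibitor gene SPRY4 (1.23, SE 0.44) higher. Heat shock genes were 2 higher and 6 lower of 21, with the chaperone genes HSPA1L (-1.23, SE 0.43) and BAG3 (-0.81, SE 0.13) lower. KLF2-related endothelial genes were 1 higher and 3 lower of 5, with S1PR1 (-0.95, SE 0.19) and ADAMTS9 (-0.88, SE 0.19) lower.

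Between the outer ribosomal bands of the SOX2 gate, where ATF3 fell, the median of all genes was -0.14 and 29.3% of genes were called higher and 33.7% lower, 10 of 17 phosphatase and ERK feedback genes were called lower and 0 higher (median -1.22). DUSP5 was at 2.46 and 9.11 CPM over 15% against 70.9 and 52.5 CPM under 5% (-2.53, SE 0.31), and ETV5 at 13.9 and 7.92 against 76.4 and 88.1 CPM (-2.42, SE 0.25). AP-1 and ATF genes were split, 7 higher and 9 lower of 20, and other immediate early genes 7 higher and 9 lower of 32, neither far from the shares over all genes. MAFF was at 23.7 and 21.4 against 116 and 90.5 CPM (-1.57, SE 0.24), and FOSL2 at 0 and 0.792 against 8.63 and 11.5 CPM (1 UMI over 15%, so no fold is given). Of the immediate early genes, ID3 (2.24, SE 0.11) and CCN2 (2.31, SE 0.13) were higher. Heat shock genes were 11 higher and 6 lower of 20 (median 0.96), with HSP90AB1 (2.86, SE 0.10) and HSPB1 (2.77, SE 0.13) leading. With total UMI scaling these lists stood at 0 higher and 11 lower, 1 and 12, 4 and 19, and 10 and 7, in the order phosphatase and feedback, AP-1 and ATF, other immediate early and heat shock.

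KLF and SP genes were 3 higher and 7 lower of 17 in that contrast, with KLF5 at 9.0 and 13.5 CPM over 15% against 182 and 124 CPM under 5% (-3.06, SE 0.29). KLF9 had 2 UMIs over 15% (1.64 and 0 CPM against 16.0 and 19.9 CPM), so no fold is given. Integrated and endoplasmic reticulum stress genes were 5 higher and 6 lower of 17, with the chaperone genes CALR (2.32, SE 0.10) and PDIA4 (1.88, SE 0.17) higher. NF-kappa-B response genes were 1 higher and 5 lower of 11, with RELB lower (-1.27, SE 0.26) and ICAM1 at 0.818 and 0.792 against 8.63 and 12.1 CPM (2 UMIs over 15%). Of the 5 KLF2-related endothelial genes 3 were lower and 0 higher, among them S1PR1 (-2.52, SE 0.34) and ADAMTS1 (-1.81, SE 0.26). With total UMI scaling these 4 lists stood at 0 higher and 12 lower, 3 and 10, 0 and 8, and 0 and 4.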

How the data were processed

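The deposited values are UMI counts for each gene in each cell, which the authors left unnormalized. The submitters' processing notes name Cell Ranger, the bosTau9 build, R 4.1.2 and Seurat 4.3.0, with an annotation not given in the sources used here. They hold 201 to 3999 detected genes per cell and at most 4.98% mitochondrial counts. Cells with 500 or more genes and under 20% mitochondrial counts were kept (4359 of 4437). No doublet caller was run. Cells with 2 or more collagen VI UMIs and also SOX2 or 2 neuron markers were set aside, cells with SOX2 and 2 or more neuron markers went to the neuron gate, and cells above the 95th percentile of UMIs were left out as an alternative.

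Raw counts were summed per gate and replicate (6 sums), or per gate, band of ribosomal protein share (83 genes) and replicate where a class had 20 or more cells in each replicate (14 sums). Sums were tested with edgeR 4.0.16 in R 4.3.3 (TMM, filterByExpr, robust quasi-likelihood, Benjamini-Hochberg over all genes at 0.05), with replicate as a block, because same-numbered sums come from 1 suspension. The gate fit had 2 residual degrees of freedom per gene and a median of 78.5 lent by the pooled spread. SE is the absolute log2 difference over the square root of F. The p-values measure only the spread between these samples, which may be technical. CPM intervals are exact Poisson and shares exact binomial (Clopper-Pearson, 95%); both, and the floor of 3 counts, cover counting error only. Other steps used Python 3.11.15, numpy 2.4.6, scipy 1.17.1 and pandas 2.3.3. The fits were checked on simulated data.

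The 6 genes, the lists and the gates were chosen with earlier results of these data known. By rule, the text names all 6 genes in each comparison, the 2 called genes of each list with the largest absolute log2 change (given for 3 contrasts: collagen VI minus SOX2, neuron minus SOX2, and the outer bands of the SOX2 gate), and the 3 genes most like each of the 6 (7844 genes with a mean of 20 CPM or more), of which 1 gene is not reported here. Alternatives were DESeq2 1.42.0, DESeq2 size factors, no filter, no block, thinning, 1000 detected genes, stricter gates, bands at 8% and 20%, sums without ribosomal protein and mitochondrial genes, and leaving out each replicate. Total UMI scaling, its version without those genes, leaving out globin-rich cells, and leaving out each replicate with TMM kept were added after the data were seen. No sequence is printed. List genes absent from the table (such as DUSP2) are not analysed here.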

Additional observations from a re-analysis of the deposited data

Results flagged for a closer look

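In CPM, IER3 was slightly higher over 15% than under 5% ribosomal protein share in both replicates of the SOX2 gate and lower in both of the neuron gate. From under 5% to over 15% it went from 9.86 to 10.6 CPM and from 9.05 to 9.90 CPM in replicates 1 and 2 of the SOX2 gate, and from 7.05 to 4.75 CPM and from 9.80 to 4.15 CPM in the neuron gate. The fitted differences were 0.69 (SE 0.41, adjusted p = 0.14) and -0.29 (SE 0.44, adjusted p = 0.58), and neuron minus SOX2 was -0.975. These sums hold 9 to 25 IER3 UMIs each, neither difference was called, and the difference itself was not tested. Under total UMI scaling the differences were 0.066 in the SOX2 gate and -0.96 in the neuron gate, and the latter was called (adjusted p = 0.044).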

How the results depend on the processing

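In the collagen VI contrasts all 6 genes were called higher under each alternative that has a test, of which the other bands covered 1 contrast and the UMI percentile 2 contrasts. Thinning to 2000 UMIs, which removes counts and cells, lowered the numbers of called genes in all 13 contrasts: from 4448 to 2571 (neuron minus SOX2 gate), 6659 to 2709 (collagen VI minus SOX2), 6502 to 2656 (collagen VI minus neuron), 7832 to 4717, 2422 to 1013 and 4819 to 2195 (SOX2 gate, over 15% minus under 5%, 5 to 15% minus under 5%, and over 15% minus 5 to 15%), 5832 to 3056 and 8512 to 5483 (neuron gate, 5 to 15% and over 15% minus under 5%), 2366 to 1296, 4009 to 1543 and 659 to 217 (neuron minus SOX2 under 5%, from 5 to 15% and over 15%), 5109 to 1593 (collagen VI minus SOX2 over 15%) and 1032 to 269 (difference of neuron and SOX2 gates in the lower step). With DESeq2 the count was 1073 for neuron minus SOX2, 1245 for it under 5% and 393 over 15%. With no replicate block it was 2321 for neuron minus SOX2, where JUNB (adjusted p = 0.15), IER3 (0.073) and KLF2 (0.15) were no longer called; no other count moved by over 1.5 times without the block. Without cells above the 95th percentile of UMIs, 3731 and 3800 genes were called for collagen VI minus SOX2 and minus neuron. Stricter gates gave 4366 for neuron minus SOX2 under 5% and 1593 for the difference of steps. Bands at 8% and 20% gave 3827 for the SOX2 gate from 5 to 15% minus under 5%, 268 for neuron minus SOX2 over 15% and 520 for the difference of steps. The mean share of cells with 2 or more of the genes was 13.5%, 7.59% and 67.7% in the SOX2, neuron and collagen VI gates at 2000 UMIs, 5.29%, 2.67% and 51.3% at 1000, 19.9% and 11.4% in the first 2 at 3000, and 34.2%, 28.2% and 77.5% unthinned. FOSB in the neuron gate, over 15% minus under 5%, turned from 0.61 to -0.065 with total UMI scaling. As plain CPM ratios, which also drop TMM, it stood at -0.50 without replicate 1 and 0.44 without replicate 2, and with TMM kept (added after the data were seen) at 0.19 and 1.05. The cause of these changes was not tested other than where fewer counts, cells or sums are part of the alternative. Collagen VI contrasts from 5 to 15% and their difference from the SOX2 gate were not run, with under 20 cells per replicate. Leaving out a replicate leaves no residual degrees of freedom, so those values have no test. Depth limits KLF2 and IER3 most outside the collagen VI gate, with 10 to 49 UMIs per replicate over all cells of the SOX2 or neuron gate.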

Other observations

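The table holds a GFP row, whose link to host or donor cells is not stated in the labels. No collagen VI cell had 10 or more GFP UMIs, and 68 of the 114 had none. In the SOX2 gate, ATF3 was at 327 and 300.1 CPM in the 108 and 131 cells without a GFP UMI and at 152 and 95.7 CPM in the 171 and 286 cells with 10 or more. DUSP1 stood at 58.2 and 60.4 CPM against 111 and 99.6 CPM, and FOSB at 25.3 and 20.8 CPM against 52.6 and 28.8 CPM. The median ribosomal protein share was 2.58% and 23.1% in these cells and the median depth 3280 and 9068 UMIs, so GFP moved with both, and their part in the values was not tested.

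The 36 cells with 2 or more collagen VI UMIs together with SOX2 or 2 neuron markers had FOSB at 54.9 and 323 CPM, ATF3 at 91.5 and 441 CPM and DUSP1 at 174 and 417 CPM in replicates 1 and 2. In 27 cells with trophoblast markers, IER3 was at 79.1 and 34.7 CPM (14 and 5 UMIs), above its level in the SOX2 and neuron gates, while FOSB, JUNB and DUSP1 had at most 1 UMI per replicate and KLF2 had none. The 18 ATF3 UMIs of replicate 1 in these cells came from 2 cells.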
